A study of Rattus norvegicus with 6 samples.

Results

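The proteasome genes of RUCA-I cells, an epithelial line from a rat endometrial adenocarcinoma, were compared between miR-203 knockout (KO) and wild-type (WT) cells. The genes are those whose symbol in the authors' gene table starts with Psma to Psmg and a number, without the immunoproteasome genes Psmb8, Psmb9 and Psmb10, and 43 of 26459 tested rows were taken, with 1 row per symbol. Total RNA of untreated, nearly confluent cells of Lewis rat origin was sequenced as 3 miR-203 -/- samples, each from a line made separately, and 3 wild-type samples, each a batch of the parental line. The authors gave 1 value per row and group in FPKM, the fragments per transcript length and library size, which pools 3 samples. It therefore comes with no SD, and the sequencing depth of the samples is unknown. The only test against the spread between samples is the authors' Cuffdiff test, and a gene is taken as changed where its q-value in the authors' deposited table is under 0.05. KO lines were set against batches of 1 line, so a difference between lines and the loss of the microRNA cannot be told apart, and in bulk RNA fewer cells with a transcript and less of it per cell cannot be told apart either. Of 8 epithelial markers, 7 had a tested row, of which 5 were higher, 2 were lower and none was called. They summed to 1397 FPKM in KO and 1399 FPKM in WT cells, although 3 had an unadjusted p under 0.05 in the authors' deposited table. Epcam was at 419 FPKM in KO and 501 FPKM in WT cells (p 0.0234), Krt8 at 241 FPKM in KO and 204 FPKM in WT cells (p 0.0288), and Krt18 at 121 FPKM in KO and 103 FPKM in WT cells (p 0.0379). Of 7 leukocyte markers, 3 had a tested row, each lower in KO cells, and Ptprc had none. Csf1r was called lower, at 0.200 FPKM in KO and 0.791 FPKM in WT cells with a q of 0.0187 in the authors' deposited table, while Cd79a, at 23.9 FPKM in KO and 31.7 FPKM in WT cells (p 0.00785, q 0.346), and Cd14, at 6.28 FPKM in KO and 7.19 FPKM in WT cells, were not called. Of 8 fibroblast and endothelial markers, Col1a1 alone had a tested row, at 1.17 FPKM in KO and 1.43 FPKM in WT cells, and was not called. The part of these markers in the proteasome values was not tested.

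The proteasome is the protease that degrades most short-lived and misfolded proteins of the cell after they have been tagged with ubiquitin. Its 20S core is a barrel whose outer rings of alpha subunits form a gate and whose inner rings of beta subunits hold the active sites. The 19S cap binds ubiquitin chains, removes them and unfolds the substrate with a ring of ATPases, while dedicated chaperones assist assembly of core and cap and leave the finished particle. In mammalian cells the transcription factor NRF1, the product of Nfe2l1, raises many of these genes together when proteasome activity is low. MicroRNA miR-203 is best known from stratified epithelium, and a microRNA mainly finds its targets through its seed, bases 2 to 8. The mature strands of the microRNA deleted in the KO lines are shown as RefSeq gives them on GRCr8, with the seed in capitals.
rno-miR-203a-3p: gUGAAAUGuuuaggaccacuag
rno-miR-203a-5p: aGUGGUUCuuaacaguucaac
The seed of the first strand reads UGAAAUG. Transcript sequences of the proteasome genes were not used here, so matches to it were not searched.

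None of the 43 genes was called higher or lower in KO cells, while 1.05% of all tested rows were called in the authors' deposited table, 0.491% higher and 0.556% lower. The smallest p among them was 0.0842, for Psma5, so none had an unadjusted p under 0.05 either, against 1588 of the 26459 tested rows. That gene also had the lowest q of the 43, 0.941 in the authors' deposited table. The largest ratio in either direction was that of Psma3, with 40.8 FPKM in KO and 47.8 FPKM in WT cells. On the scale log2((KO + 1)/(WT + 1)), used for all ratios below unless said otherwise, it stood at −0.22, and 27 of the 43 lay within 0.1 of 0. The median size of the ratio, taken without sign, was 0.081 over the 43 genes and 0.095 over all tested rows with a mean of 20 to 350 FPKM, the range that holds 39 of the 43.

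The precision behind these values was estimated from the authors' log2 fold and p-value, taking the fold as normally distributed. The standard error so implied for the log2 fold had a median of 0.11 over the 43 genes and ran from 0.10 for Psma1 to 0.31 for Psmb6. For Psma5 it gives a 95% interval of −0.40 to 0.025 around a log2 fold change of −0.19 in the authors' deposited table. Among rows with a mean of 20 to 350 FPKM, 74 of 5110 were called, and the smallest called change was a log2 fold change of 0.38 in the authors' deposited table. Differences of the size seen in the proteasome genes, at most 1.17-fold in either direction, were thus under what was called at these levels, and the absence of calls does not show that levels were equal.

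**Figure D1:**
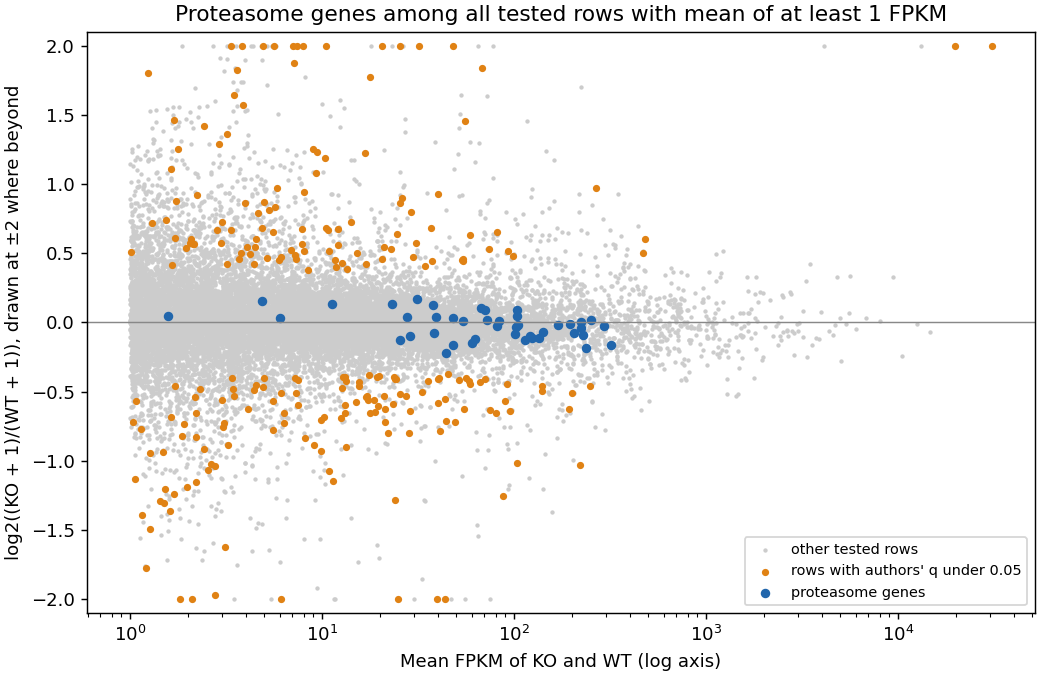
Each tested row whose mean reached 1 FPKM is drawn by its mean FPKM over KO and WT (horizontal, log axis) and its log2((KO + 1)/(WT + 1)) (vertical, drawn at ±2 where it lies beyond). The 43 proteasome genes (blue) lie between −0.22 and 0.17, nearer to 0 than any drawn row with q under 0.05 in the authors' deposited table (orange), of which the nearest lies 0.37 from 0.

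By role, the genes fell on 2 sides of 0, with core and cap subunits mostly lower and chaperones, alternative caps and the inhibitor mostly higher in KO cells, each by amounts that did not pass the test. Of 31 core and cap subunits, 23 were lower and 8 higher, with a median ratio of −0.067, and none was called. Of 11 chaperones, alternative caps and inhibitor, 10 were higher and 1 lower, with a median of 0.092, and none was called. The 7 assembly chaperones among these had 6 higher and 1 lower, with a smaller median of 0.041, and none was called. Over all 18090 tested rows whose mean reached 1 FPKM, 48.9% were lower and the median was 0.0046. Over those with a mean of 20 to 350 FPKM, 55.7% were lower and the median was −0.018. The 2 sets differed in level as well as in role. Core and cap subunits had a median level of 104 FPKM in both KO and WT cells. The other set had one of 28.1 FPKM in KO and 29.3 FPKM in WT cells. The part of level in the directions was not tested. With 1 value per group the difference between the 2 sets of genes was not tested. The side of 0 on which a gene lies rests on the scaling of the FPKM values. With each group's FPKM set to the same sum, which moved the median of all rows by −0.14 and shifts all genes alike, 31 of 31 core and cap subunits and 9 of the 11 chaperones, alternative caps and inhibitor were lower. The medians of the 2 sets were then −0.23 and −0.0700.

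**Figure D2:**
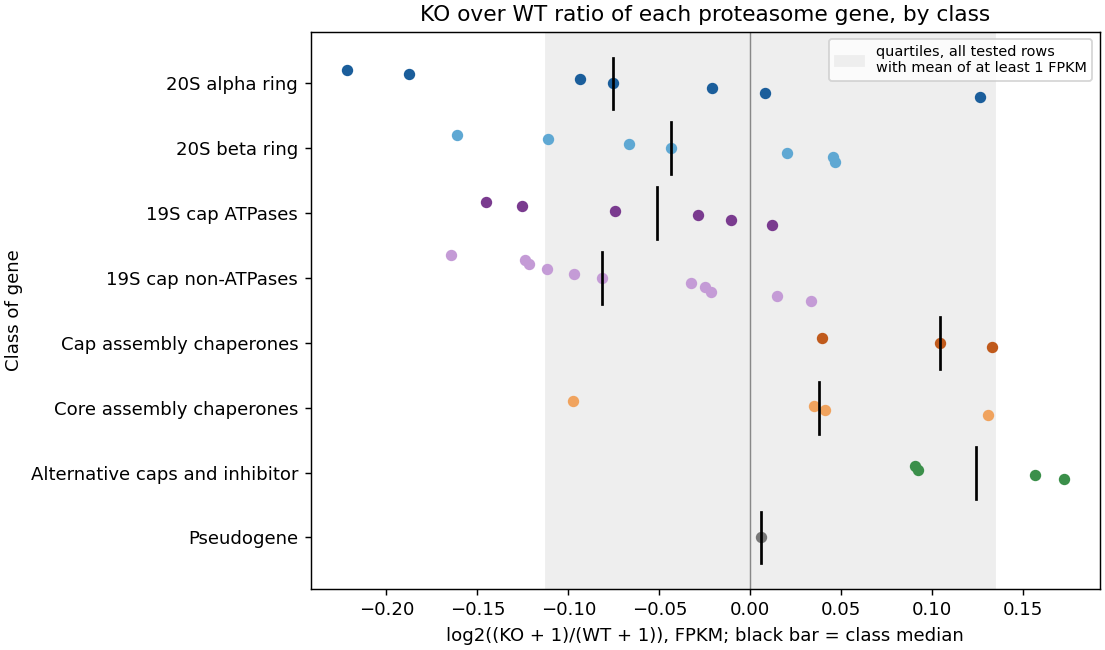
The ratio of KO over WT as log2((KO + 1)/(WT + 1)) (horizontal) is drawn for each of the 43 genes by class (vertical), with points set apart vertically only to be seen, black bars at class medians and a grey band between the quartiles of all tested rows whose mean reached 1 FPKM (−0.11 and 0.13). The 4 classes of core and cap subunits have medians from −0.081 to −0.043, and the classes of chaperones and of alternative caps have medians from 0.038 to 0.12.

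Alpha subunits of the core, which form the gate through which substrates enter, summed to 907 FPKM in KO and 968 FPKM in WT cells. Of the 7, 5 were lower, 2 were higher and none was called, with a median ratio of −0.075. The highest level was that of Psma5 (chromosome 2, 211050256 to 211073708 on rn6, as the authors list it), at 222 FPKM in KO and 253 FPKM in WT cells, and its q in the authors' deposited table was 0.941. Psma3 (chromosome 6, 93431195 to 93445265) had the largest decrease of the class, 0.854 times the WT level, at a q of 0.997 in the authors' deposited table. Psma2 stood at 219.9 FPKM in KO and 235 FPKM in WT cells, Psma4 at 199 FPKM in KO and 209 FPKM in WT cells, and Psma1 at 104 FPKM in KO and 105 FPKM in WT cells. These 5 were the members below WT. Psma6 stood at 83.2 FPKM in KO and 82.8 FPKM in WT cells. Psma7 (chromosome 3, 175408471 to 175464183) had the largest increase, with 39.4 FPKM in KO and 36.0 FPKM in WT cells, 1.09 times the WT level at a q of 0.997 in the authors' deposited table. Subunits of 1 ring are present in equal numbers in the particle, while their FPKM values differed several-fold within either group.

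Beta subunits, of which Psmb5, Psmb6 and Psmb7 carry the chymotrypsin-like, caspase-like and trypsin-like active sites, summed to 955 FPKM in KO and 1009.5 FPKM in WT cells. The class had 4 members lower and 3 higher, none called, and a median ratio of −0.043. Psmb4, a structural beta subunit (chromosome 2, 196043431 to 196047057), had the highest level of all 43 genes and the largest decrease of its class, with 301 FPKM in KO and 336 FPKM in WT cells, 0.894 times the WT level at a q of 0.996 in the authors' deposited table. Psmb5 (chromosome 15, 33258178 to 33263633) had the largest increase on the log2((KO + 1)/(WT + 1)) scale, with 105 FPKM in KO and 102 FPKM in WT cells, 1.03 times the WT level at a q of 0.997 in the authors' deposited table. Psmb7 stood at 137 FPKM in KO and 144 FPKM in WT cells. Psmb5 and Psmb7 thus lay on opposite sides of WT, by amounts that did not pass the test, and Psmb6 is described below. Among the other structural subunits, Psmb2 stood at 119 FPKM in KO and 128 FPKM in WT cells, Psmb3 at 219.5 FPKM in KO and 226 FPKM in WT cells, and Psmb1 at 72.7 FPKM in KO and 71.6 FPKM in WT cells.

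Psmb6 stood apart from the other beta subunits in level, at 1.61 FPKM in KO and 1.52 FPKM in WT cells (chromosome 10, 57132795 to 57133884). Without the pseudocount its fold, 1.05 times the WT level, was above that of Psmb5. Psmb1, the next lowest beta subunit, lay far above it. Its row spans 1089 bp. The RefSeq table of GRCr8 names 2 pseudogenes of Psmb6, and 18 of the 42 genes other than the pseudogene row have at least 1 such entry. Sharing of reads with these copies was not tested, and the level of Psmb6 is given only as listed.

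ATPases of the cap, the Psmc genes, use ATP to unfold the substrate and thread it into the core. They summed to 448 FPKM in KO and 461 FPKM in WT cells, where 5 of 6 were lower, 1 was higher and none was called, with a median ratio of −0.052. Psmc6 (chromosome 15, 19667500 to 19688908) had the largest decrease, with 57.0 FPKM in KO and 63.1 FPKM in WT cells, 0.903 times the WT level at a q of 0.997 in the authors' deposited table. Psmc4 stood at 24.3 FPKM in KO and 26.6 FPKM in WT cells, and Psmc1 at 37.2 FPKM in KO and 39.2 FPKM in WT cells. Both ratios were nearer to 0 than that of Psmc6. Psmc5 stood at 80.2 FPKM in KO and 81.8 FPKM in WT cells, and Psmc3, the highest of the class, at 195 FPKM in KO and 196 FPKM in WT cells. Psmc2 (chromosome 4, 9867129 to 9881473) was the member above WT, with 54.4 FPKM in KO and 53.9 FPKM in WT cells, 1.01 times the WT level at a q of 0.997 in the authors' deposited table.

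The non-ATPase subunits of the cap include scaffolds, ubiquitin receptors and the enzyme that removes ubiquitin chains. They summed to 1419.7 FPKM in KO and 1471 FPKM in WT cells. Of the 11, 9 were lower, 2 were higher and none was called, with a median ratio of −0.081. Psmd4, a receptor for ubiquitin chains (chromosome 2, 196196297 to 196207517), had the largest decrease, with 45.1 FPKM in KO and 50.7 FPKM in WT cells, 0.890 times the WT level at a q of 0.991 in the authors' deposited table. Psmd8, a subunit of the part called the lid (chromosome 1, 88112978 to 88124817), had the largest increase, with 48.4 FPKM in KO and 47.2 FPKM in WT cells, 1.02 times the WT level at a q of 0.997 in the authors' deposited table. The large scaffolds Psmd1 and Psmd2 lay on either side of WT. Psmd1 stood at 129 FPKM in KO and 139.6 FPKM in WT cells, and Psmd2 at 252 FPKM in KO and 249 FPKM in WT cells. Psmd14, the deubiquitinating enzyme, stood at 101 FPKM in KO and 103 FPKM in WT cells, and its partner Psmd7 at 169 FPKM in KO and 171 FPKM in WT cells. The ratios of that pair were −0.033 and −0.021. Psmd12 stood at 109 FPKM in KO and 118 FPKM in WT cells, Psmd6 at 60.1 FPKM in KO and 65.5 FPKM in WT cells, and Psmd11 at 117 FPKM in KO and 125 FPKM in WT cells. Psmd13 stood at 98.6 FPKM in KO and 104 FPKM in WT cells, and Psmd3, the highest of the class, at 292 FPKM in KO and 297 FPKM in WT cells.

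**Figure D3:**
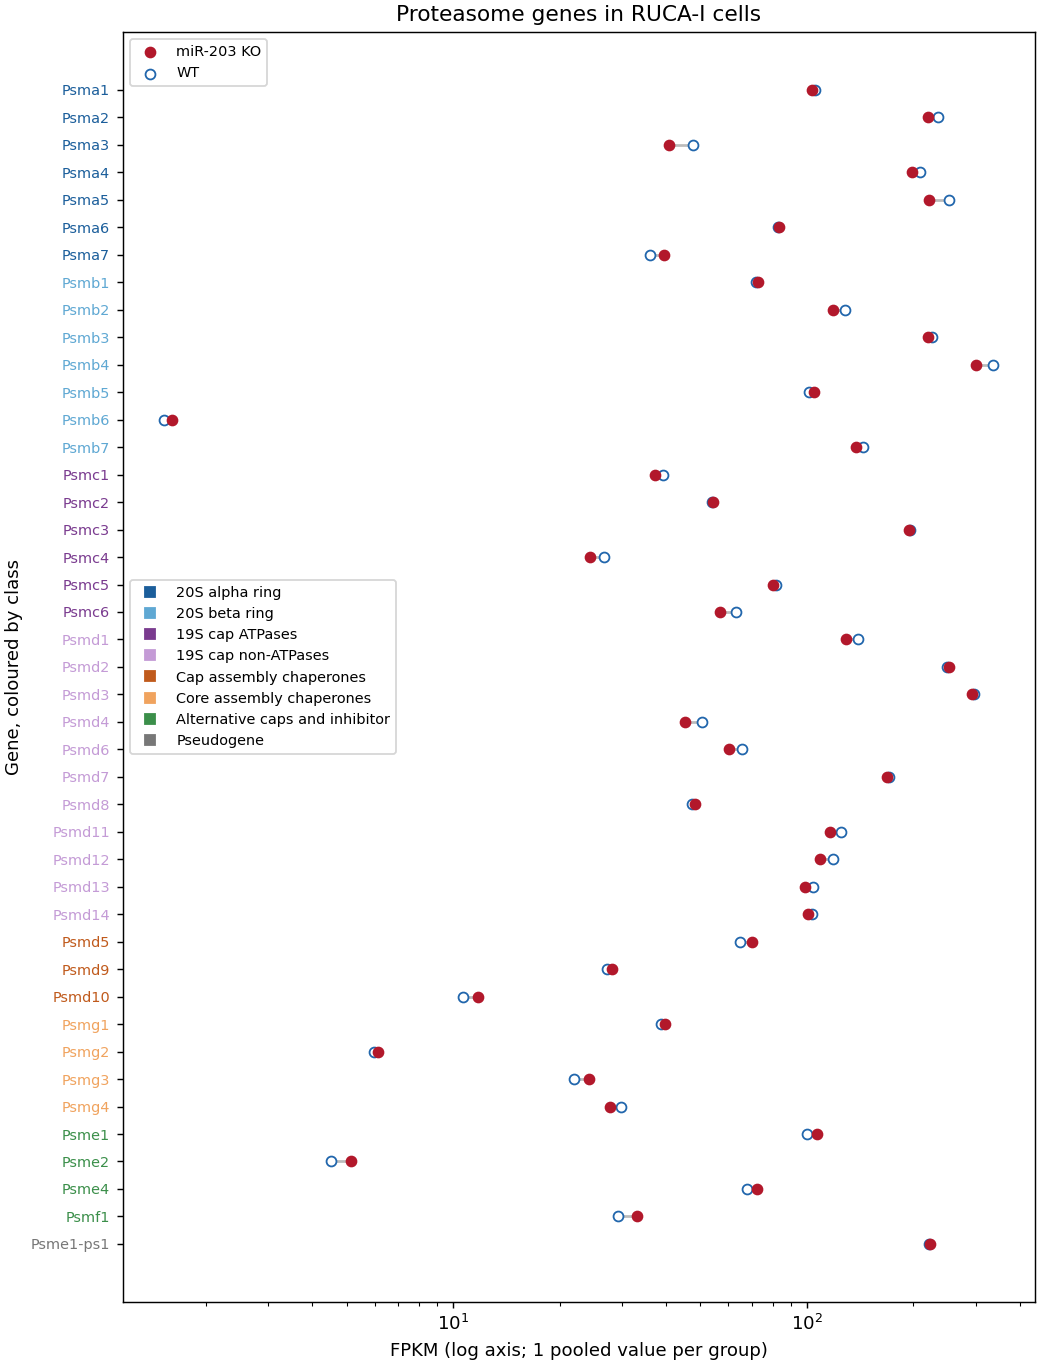
Levels of the 43 genes in FPKM (horizontal, log axis) are drawn for miR-203 KO (filled red) and WT cells (open blue), 1 pooled value per group, with gene names coloured by class (vertical). Most pairs of points nearly touch. Psmb6 (1.61 FPKM in KO and 1.52 FPKM in WT cells) is the lowest, followed by Psme2 (5.16 FPKM in KO and 4.53 FPKM in WT cells).

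In the rows used, chaperones that build the cap were all above WT, by amounts that did not pass the test. The 3 genes Psmd5, Psmd9 and Psmd10, which bind ATPases before the cap is complete, had a median ratio of 0.10 and summed to 109.7 FPKM in KO and 103 FPKM in WT cells. Psmd10, also called gankyrin (chromosome X, 112326705 to 112328647), had the largest increase, with 11.8 FPKM in KO and 10.6 FPKM in WT cells, 1.11 times the WT level at a q of 0.997 in the authors' deposited table. Psmd5 stood at 69.8 FPKM in KO and 64.9 FPKM in WT cells, and Psmd9 at 28.1 FPKM in KO and 27.3 FPKM in WT cells. Psmd10 was the lowest of the 3 in level in either group. Further rows at the same locus as Psmd5 or Psmd10, each with a mean under 1 FPKM, lay below WT.

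Chaperones of the core, which act in pairs on the alpha ring, showed 3 members above WT and 1 below, none called, with a median ratio of 0.038. Psmg3 (chromosome 12, 16899065 to 16902089) had the largest increase, with 24.2 FPKM in KO and 22.0 FPKM in WT cells, 1.099 times the WT level at a q of 0.997 in the authors' deposited table. Its partner Psmg4 (chromosome 17, 31404577 to 31411905) was the member below WT, with 27.7 FPKM in KO and 29.8 FPKM in WT cells, 0.932 times the WT level at a q of 0.997 in the authors' deposited table. The partners thus lay on opposite sides of WT. Psmg1 stood at 39.8 FPKM in KO and 38.6 FPKM in WT cells, and its partner Psmg2 at 6.14 FPKM in KO and 5.97 FPKM in WT cells. A further row with the same locus as Psmg2 had 5.83 FPKM in KO and 6.03 FPKM in WT cells, so the direction of Psmg2 depends on the row.

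Alternative caps, which open the core without ATP or ubiquitin binding, and the inhibitor were above WT in 4 of 4 genes with a tested row, none called. Their median ratio was 0.12, with sums of 218 FPKM in KO and 202 FPKM in WT cells. Psme3, which belongs to this class as well, had no tested row under its symbol. Psmf1, known as an inhibitor of the core (chromosome 3, 147237725 to 147260449), had the largest increase of all 43 genes on the log2((KO + 1)/(WT + 1)) scale, with 33.2 FPKM in KO and 29.3 FPKM in WT cells, 1.13 times the WT level at a q of 0.997 in the authors' deposited table. Psme1 and Psme2, the interferon-inducible chains of the cap PA28, are neighbours on chromosome 15. Psme1 stood at 107 FPKM in KO and 100.4 FPKM in WT cells, and Psme2 at 5.16 FPKM in KO and 4.53 FPKM in WT cells. Without the pseudocount the fold of Psme2, 1.14 times the WT level, was above that of Psmf1. Psme4 (chromosome 14, 115246371 to 115269039), the cap PA200, had the smallest increase of the class, with 72.3 FPKM in KO and 67.8 FPKM in WT cells. That is a log2 fold of 0.092 from the FPKM values (1.07 times the WT level), whereas the log2 fold was 0.065 at a q of 0.997 in the authors' deposited table, and in no other of the 43 genes did both differ by over 0.01. The row Psme1-ps1, a pseudogene of Psme1 on chromosome 17 (52755730 to 52756240), was listed at 223 FPKM in KO and 222 FPKM in WT cells, above Psme1 itself. It is kept because its symbol matches, but it stands for no subunit, and its reads may include those of Psme1, which was not tested.

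Position on chromosome 3 moved with 2 of these values. Rows that start beyond 120 Mb there and average 5 FPKM or more had a median ratio of 0.14, and 82.7% of the 364 were higher in KO cells. The rows of chromosome 3 before that point had a median of −0.019, and 44.8% of the 491 were higher. Psma7 and Psmf1 lie in the distal stretch, with ratios of 0.13 and 0.17. The other 4 members on the chromosome, Psmd5, Psmb7, Psmd14 and Psmc3, lie before it, with ratios of 0.104, −0.067, −0.033 and −0.011. Adrm1, a ubiquitin receptor of the cap in the same distal stretch, stood at 16.8 FPKM in KO and 15.1 FPKM in WT cells. The part of position in the values of Psma7 and Psmf1 was not tested. Without the 6 genes of chromosome 3, the class medians were −0.085 for alpha subunits, −0.012 for beta subunits, −0.074 for ATPases and −0.089 for non-ATPases. They were 0.086 for cap chaperones, 0.038 for core chaperones and 0.092 for alternative caps and inhibitor. The median of the beta subunits thus went from −0.043 to −0.012, and it then rested on 6 genes. The beta subunit left out was Psmb7, which lies before the distal stretch.

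Immunoproteasome subunits replace the active-site subunits of the core when cells respond to interferon, and their values stand beside those of the genes they replace. Psmb10, the counterpart of Psmb7, was at 25.6 FPKM in KO and 20.9 FPKM in WT cells, at a p of 0.0115 and a q of 0.429 in the authors' deposited table. Psmb9, the counterpart of Psmb6, was at 115 FPKM in KO and 100.6 FPKM in WT cells, and Psmb8, the counterpart of Psmb5, at 29.5 FPKM in KO and 31.1 FPKM in WT cells. Psmb8 and Psmb9 are listed at the same locus (chromosome 20, 3973234 to 4009522), and sharing of reads between them was not tested. None of the 3 was called. In both groups Psmb8 and Psmb10 were listed below Psmb5 and Psmb7, and Psmb9 above Psmb6, whose low listed value is described above.

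Of the proteasome proteins under other symbols, 6 of 9 were below WT, 3 above and none called, with a median ratio of −0.078. Of all tested rows whose mean reached 1 FPKM, 48.9% were lower. The share was 55.7% for those with a mean of 20 to 350 FPKM. Shfm1, the smallest cap subunit, stood at 449.9 FPKM in KO and 446 FPKM in WT cells. Txnl1, a thioredoxin-like protein of the cap, was at 40.0 FPKM in KO and 44.3 FPKM in WT cells, the deubiquitinase Uchl5 at 36.3 FPKM in KO and 40.1 FPKM in WT cells in a row it shares with another symbol, and the deubiquitinase Usp14 at 27.3 FPKM in KO and 28.8 FPKM in WT cells. These 3 were lower, without passing the test. The cap subunits Shfm1 and Adrm1 (16.8 FPKM in KO and 15.1 FPKM in WT cells) were higher, also without passing it. Pomp, which assists maturation of the beta subunits, had no tested row under its symbol.

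The NRF1 pathway had 7 of 13 genes lower, 6 higher and none called, with a median ratio of −0.029. Nfe2l1, which encodes NRF1, was at 31.5 FPKM in KO and 37.4 FPKM in WT cells, at a p of 0.0402 and a q of 0.789 in the authors' deposited table. Apart from Psmb10 it was the only gene of these 4 lists with an unadjusted p under 0.05. Nfe2l2, which encodes the related factor NRF2, lay on the other side, at 138 FPKM in KO and 124 FPKM in WT cells, at a q of 0.997 in the authors' deposited table. Vcp, the ATPase that extracts NRF1 from the endoplasmic reticulum, stood at 128 FPKM in KO and 131 FPKM in WT cells in a row it shares with Fancg. Its cofactor Nploc4 was at 50.4 FPKM in KO and 49.9 FPKM in WT cells, and Ogt, a glycosyltransferase, at 48.4 FPKM in KO and 50.7 FPKM in WT cells. The ratios of Vcp, Nploc4 and Ogt were nearer to 0 than that of Nfe2l1, and none passed the test.

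Ubiquitin genes and the shuttle proteins that bring ubiquitin-tagged substrates to the cap were even in direction, with 6 of 11 higher, 5 lower and none called, and a median ratio of 0.0024. Uba1, the main enzyme that activates ubiquitin, stood at 104 FPKM in KO and 102 FPKM in WT cells. The shuttle Ubqln1 was at 86.0 FPKM in KO and 90.5 FPKM in WT cells, and Ubxn1, a cofactor of Vcp, at 82.2 FPKM in KO and 89.6 FPKM in WT cells. Bag6, a chaperone that holds misplaced membrane proteins for degradation, lay on the other side of WT from these 2, at 87.1 FPKM in KO and 81.8 FPKM in WT cells.

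**Figure D4:**
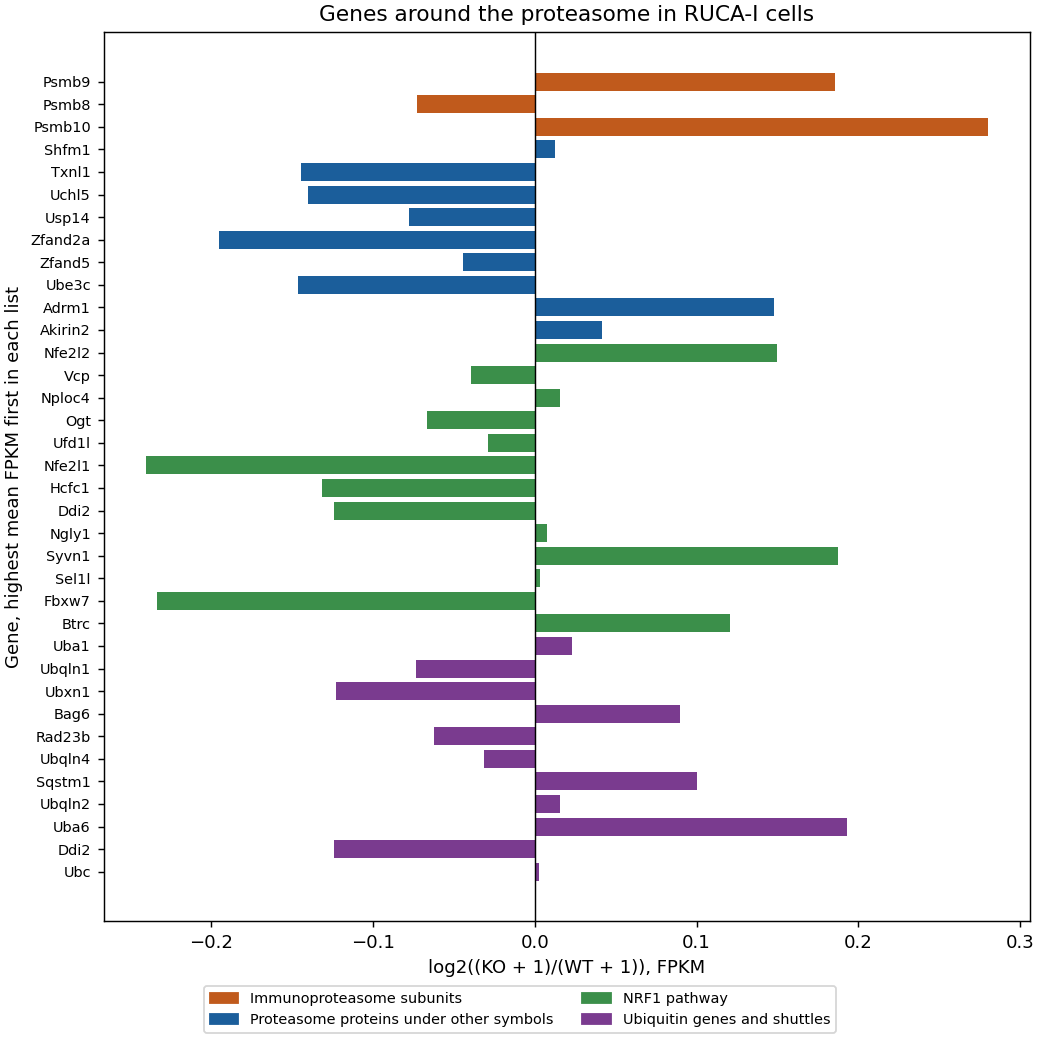
The ratio log2((KO + 1)/(WT + 1)) (horizontal) is drawn as a bar for each gene of 4 lists around the proteasome (vertical, coloured by list, with Ddi2 in 2 lists). Psmb10 has the longest bar above 0 and Nfe2l1 the longest below it, and no gene drawn was called.

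Promoter sequences, which the choice of genes did not use, were searched for motifs. NRF1 and NRF2 bind the antioxidant response element, whose core was searched as TGACNNNGC on both strands of RefSeq promoters (GRCr8, from 250 bases before to 50 bases after the gene start). Of the 43 genes, 38 matched a promoter by symbol. The motif occurred in 8 of the 38 (21.1%) and in 12.1% of all 33469 promoters of the same length. The 8 were Psmb2, Psma3, Psmd1, Psmb6, Psmd3, Psmd9, Psme4 and Psmb5. Genes with the motif had a median ratio of 0.0072, with 4 of 8 lower in KO cells, and the 30 without it had a median of −0.021, with 17 lower. CCAAT, the core bound by NF-Y, occurred in 18 of the 38 (47.4%) and in 37.5% of all promoters. Their median ratio was −0.055, with 13 of 18 lower, and that of the 20 without it was 0.013, with 8 lower. Core and cap subunits made up a larger share of the genes with CCAAT than of those without it. Neither the difference in ratio nor the part of class in it was tested. For neither motif was the share among the 38 tested against that of all promoters. Neither motif contains the other, and a match is a description of the letters and not of binding. The promoters of 2 active-site genes, a scaffold and an alternative cap are printed to show where the first motif lies, each 5′ to 3′ along the gene with matches in capitals. On these strands Psmb5 (chr15:32047330-32047629, minus), Psmb6 (chr10:55737638-55737937, plus) and Psmd1 (chr9:94157721-94158020, plus) hold it as spelled, Psmd1 at 2 places, and Psme4 (chr14:108706393-108706692, plus) holds its reverse complement.
Psmb5: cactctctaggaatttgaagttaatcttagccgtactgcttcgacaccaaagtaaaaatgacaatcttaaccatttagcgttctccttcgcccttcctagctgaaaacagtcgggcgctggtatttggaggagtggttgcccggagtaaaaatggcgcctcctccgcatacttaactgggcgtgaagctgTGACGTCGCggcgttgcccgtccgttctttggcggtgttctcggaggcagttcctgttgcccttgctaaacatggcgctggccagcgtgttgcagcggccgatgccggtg
Psmb6: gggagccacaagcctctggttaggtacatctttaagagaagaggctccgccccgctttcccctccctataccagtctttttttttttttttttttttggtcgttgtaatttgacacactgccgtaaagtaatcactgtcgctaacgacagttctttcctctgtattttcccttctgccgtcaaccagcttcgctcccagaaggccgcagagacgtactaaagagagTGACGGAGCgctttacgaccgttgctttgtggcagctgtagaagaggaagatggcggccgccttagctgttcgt
Psmd1: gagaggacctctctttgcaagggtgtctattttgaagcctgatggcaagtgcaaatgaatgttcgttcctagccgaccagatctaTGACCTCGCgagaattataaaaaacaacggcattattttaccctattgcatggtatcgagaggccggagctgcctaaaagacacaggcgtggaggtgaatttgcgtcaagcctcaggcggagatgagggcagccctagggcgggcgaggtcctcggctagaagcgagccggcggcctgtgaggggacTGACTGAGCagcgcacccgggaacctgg
Psme4: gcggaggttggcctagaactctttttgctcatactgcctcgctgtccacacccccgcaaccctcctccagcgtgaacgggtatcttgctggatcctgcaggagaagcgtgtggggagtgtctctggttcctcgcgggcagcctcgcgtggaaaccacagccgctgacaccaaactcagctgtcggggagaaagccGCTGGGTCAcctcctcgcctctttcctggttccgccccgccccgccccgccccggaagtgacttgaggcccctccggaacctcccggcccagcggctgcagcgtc
The matches of Psmb5, Psmb6 and Psme4 start 60, 24 and 55 bases before the gene start, and those of Psmd1 start 165 bases before it and just after it. Their ratios ran from −0.11 for Psmd1, the one below WT, to 0.091 for Psme4.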

How the data were processed

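Stranded dUTP libraries of total RNA were made from 3 miR-203 KO lines and 3 WT batches, per the labels' protocols. Per the submitters' processing notes, reads were handled with TopHat 0.9, with Cufflinks 2.2.1 and with Cuffdiff 2.2.1.3 on rn6; the annotation is not given in the sources used here. Per the file headers, the authors deposited 1 FPKM value per group and row, the log2 fold of KO over WT, a test statistic (a score), the p-value and the q-value. FPKM keeps no read depth, so precision was taken from the authors' p. Their q equalled Benjamini-Hochberg adjustment over the 26459 tested rows.

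The longest locus per symbol was used, and among equal loci (6 symbols) the row with the higher mean, a choice added after the values were seen. limma was planned for tables with values per sample, and with 1 pooled value per group it was not run. Ratios use a pseudocount of 1, which understates changes of low genes such as Psmb6. The members, the lists and the border at 120 Mb on chromosome 3 were chosen with earlier results of these data known. Named were all members, with folds for the largest rise and fall of each class, and from the other lists Nfe2l1, Nfe2l2, Pomp, Psmb8, Psmb9, Psmb10 and up to 4 others with the highest mean. Adrm1 and the cell type markers were named after the values were seen. One gene of the list of ubiquitin genes and shuttles is not reported here and was left out of its counts. RefSeq sequences were matched by symbol. Row choice, medians and adjustment were tested on simulated data. Python 3.11.15, pandas 2.3.3, NumPy 2.4.6, SciPy 1.17.1 and Matplotlib 3.10.9 were used.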

Additional observations from a re-analysis of the deposited data

How the results depend on the processing

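The count of called genes stayed at 0 in both directions under all 7 alternatives. Only q under 0.10 and a q recomputed over rows with a mean of 5 FPKM or more (smallest q 0.855) could have added a call. The others were stricter, left out genes or used the same rows, so they could not raise the count. Among the medians of log2((KO + 1)/(WT + 1)), none moved by 0.1 under the pseudocount of 0.1, the authors' fold column, a minimum mean of 5 FPKM, centring on all rows, the row with the highest mean or leaving out chromosome 3. That limit is wide, as the class medians themselves lay between −0.081 and 0.12. None of them changed sign, but that of beta subunits went from −0.043 to −0.012 without chromosome 3. Taking the row with the highest mean changed no row, so it could move no median. Setting both groups to the same FPKM sum moved the median of all rows by −0.14, and the medians became −0.24 for alpha subunits, −0.21 for beta subunits, −0.21 for ATPases, −0.24 for non-ATPases, −0.057 for cap chaperones, −0.11 for core chaperones and −0.028 for alternative caps and inhibitor. They became −0.23 for core and cap together, −0.0700 for chaperones, alternative caps and inhibitor together and −0.18 for all 43 genes. The ratios of summed FPKM, KO over WT, then were 0.836, 0.845, 0.867, 0.861, 0.952, 0.906 and 0.962 for the 7 classes in that order, 0.852 and 0.946 for the same 2 sets, and 0.862 for all 43. Under that scaling 41 of the 43 genes were lower, including 9 of the 11 chaperones, alternative caps and inhibitor. The sums, 1039935 FPKM in KO and 928381 FPKM in WT cells, differ mainly through 3 rows, namely an unnamed locus of 45 bp, LOC500035 (46 bp) and Sema4c, which were 52011, 35048 and 23153 FPKM higher in KO cells. With sums set equal over loci of at least 300 bp, a choice made after seeing the data, 4 of those 11 were lower. Sema4c, at 9497 bp, stays in these sums. The median of the 11 was then 0.020, that of core chaperones was −0.029, and 29 of the 31 core and cap subunits were lower. No paired analysis was possible because samples of a group are pooled into 1 value, and leaving out each replicate was not run for the same reason. Depth cannot be read from FPKM, so the precision of low genes such as Psmb6 is known only through the authors' p.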

Other observations

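Beside the 43 rows used, 16 further tested rows carry a symbol of 9 of these genes, most of them at the same place as the main row or next to it. Their mean reached at most 5.93 FPKM, 12 were under 1 FPKM, 9 were higher and 7 lower in KO cells, and none was called. For Psma3, Psmd1, Psmd5, Psmd10 and Psmg2, at least 1 row at the same locus lay on the other side of WT from the row used. The lowest p among them was 0.0314, at a q of 0.733 in the authors' deposited table, for a row of 863 bp at Psma3 listed at 0.602 FPKM in KO and 0.243 FPKM in WT cells.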
